A study of Mus musculus with 6 samples.

Results

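Wnt ligands, their cell-surface receptors and co-receptors, and the secreted proteins that modulate them were followed across 6 microarrays of mouse pluripotent cells. The genes were chosen by name: every probe with a single gene symbol of the Wnt, Fzd, Sfrp or Rspo families, or of Lrp5, Lrp6, Ror1, Ror2, Ryk, Frzb or Wif1. This gave 44 genes on 46 probes, out of 22180 genes on 23521 probes with 1 symbol. They are 19 ligands, 10 Frizzled receptors, 5 co-receptors and 10 secreted modulators. Probes of 1 gene were averaged on the log2 scale.

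The cells were EB3 mouse embryonic stem cells (mESC), grown in N2B27 medium with LIF and BMP4, and epiblast-like cells (EpiLC) derived from EB3 mESC over 2 days. EpiLC were made on serum-coated dishes in N2B27 with bFGF at 12 ng/ml and ActivinA at 20 ng/ml. They model the epiblast of the embryo around implantation, and all groups come from a single line. Each state was untreated, treated for 24 h with 3 µM CHIR99021 (CHIR), or treated for 24 h with 3 µM CHIR99021 and 1 µM PD0325901 (PD). CHIR inhibits glycogen synthase kinase and so stabilises beta-catenin, and PD inhibits MEK, the kinase that activates ERK. PD was not given alone in any group used here. The labels do not say when within the EpiLC induction the treatment fell. Each of the 6 groups is 1 array, so no group has a measured replicate spread, and medium and cell state cannot be told apart.

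Wnt ligands are lipid-modified secreted proteins that bind Frizzled receptors. With the co-receptors Lrp5 or Lrp6 they block the destruction of beta-catenin, which then acts on target genes with TCF/LEF factors, while Ror and Ryk receptors carry signals that mostly do not use beta-catenin. R-spondins raise the amount of Frizzled and Lrp at the cell surface, and Sfrp proteins, Frzb and Wif1 bind Wnt ligands outside the cell. In the mouse embryo Wnt3 is needed for the primitive streak, and naive stem cell cultures are commonly kept with CHIR and PD together.

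Values are normalised intensities on a linear scale with a lowest value of 16, and the median of all genes lay between 77.5 and 80.1 on the 6 arrays. Between 14 and 22 of the 44 genes were under their array's median. All 10 naive pluripotency markers fell in EpiLC and 4 of 8 formative epiblast markers rose, in an additive limma model of state and treatment at an adjusted p under 0.05. In untreated cells the summed naive intensity was 10730 in mESC and 1647 in EpiLC. The summed formative intensity was 9695, 5699 and 2495 in untreated, CHIR and CHIR with PD EpiLC. In mESC it was 3675, 2464 and 1412, so EpiLC with both inhibitors lay below untreated mESC. On that EpiLC array 5 of 8 formative markers were lower by 2-fold or more than in untreated EpiLC, while the naive sum was 1446. The beta-catenin target Axin2 was higher with CHIR, at 182, 368 and 319 in untreated, CHIR and CHIR with PD mESC and at 165, 307 and 341 in EpiLC. Of 13 measured targets, 5 were higher by 2-fold or more with CHIR in mESC (all genes 0.185%) and 0 lower (all genes 0.153%). In EpiLC 6 were higher (all genes 1.77%), Axin2 not among them, and 1, Myc, was lower (all genes 0.929%). None of the 13 passed the limma fit of CHIR. The ERK target Spry4 went from 608 to 36.2 in mESC and from 338 to 22.3 in EpiLC when PD was added to CHIR. It moved most of 10 listed ERK-dependent genes, of which 8 were lower by 2-fold or more in mESC (all genes 0.523%) and 8 in EpiLC (all genes 1.01%).

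How far each gene varied was read from its highest and lowest array. Over the 6 arrays, 23 of the 44 spanned 2-fold or more, against 13.9% of all genes. A span of 4-fold or more was seen for 12 of them, against 3.38% of all genes: Wnt3, Wnt3a, Wnt4, Wnt6, Wnt8a, Fzd2, Fzd5, Fzd7, Fzd10, Rspo1, Rspo3 and Frzb. Within mESC, 5 genes spanned 2-fold or more (all genes 1.79%), and within EpiLC 15 did (all genes 5.66%). The other 21 genes, 11 of them ligands, stayed within 2-fold on all 6 arrays, and 13 of the 44 were under an intensity of 100 on every array.

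The first comparison asked how EpiLC differ from mESC. EpiLC had higher Wnt3, Wnt8a, Fzd2, Fzd3, Fzd6, Fzd8 and Lrp5, and lower Fzd5 and Sfrp1. These 7 genes rose at an adjusted p under 0.05 (15.9% of the 44 genes, against 4.15% of all genes) and these 2 fell (4.55%, against 4.15% of all genes). By role, 2 of 19 ligands, 4 of 10 Frizzled receptors and 1 of 5 co-receptors rose, and 1 Frizzled receptor and 1 of 10 secreted modulators fell. The median difference was 0.26 on the log2 scale over the 44 genes and -0.02 over all genes, and 31 of the 44 differences were above 0 (all genes 46.2%). All 3 EpiLC arrays were above all 3 mESC arrays for 15 genes (34.1%, against 12.4% of all genes) and below them for 2 (4.55%, against 14.4%). With 1 array per group, the only error available to the model is how far the arrays depart from a sum of a state effect and a treatment effect, on 2 residual degrees of freedom. Between single arrays, with no test, 6 genes were higher in EpiLC by 2-fold or more in untreated cells (13.6%, against 1.47% of all genes) and 1 was lower (2.27%, against 2.3%). With CHIR, 10 were higher (22.7%, against 2.45%) and 1 lower (2.27%, against 2.63%). With CHIR and PD, 14 were higher (31.8%, against 3.29%) and 3 lower (6.82%, against 3.11%).

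Among the ligands, Wnt3 measured 93.8, 87.3 and 56.9 in mESC that were untreated, treated with CHIR, and treated with CHIR and PD, and 199, 322 and 404 in the EpiLC arrays in the same order. The lowest EpiLC array was above the highest mESC array, and the limma estimate was 1.93 (SE 0.31, adjusted p = 0.0225). Wnt8a, a ligand of the posterior epiblast and streak, measured 73.0, 138 and 45.3 in mESC and 234, 404 and 525 in EpiLC. Its groups did not overlap either, with a limma estimate of 2.25 (SE 0.39, adjusted p = 0.0266). Wnt5a, which signals mainly without beta-catenin, measured 167, 211 and 138 in mESC and 155, 496 and 494 in EpiLC. Its untreated EpiLC value lay inside the mESC range, and the estimate of 0.99 (SE 0.36) had an adjusted p of 0.166.

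**Figure D1:**
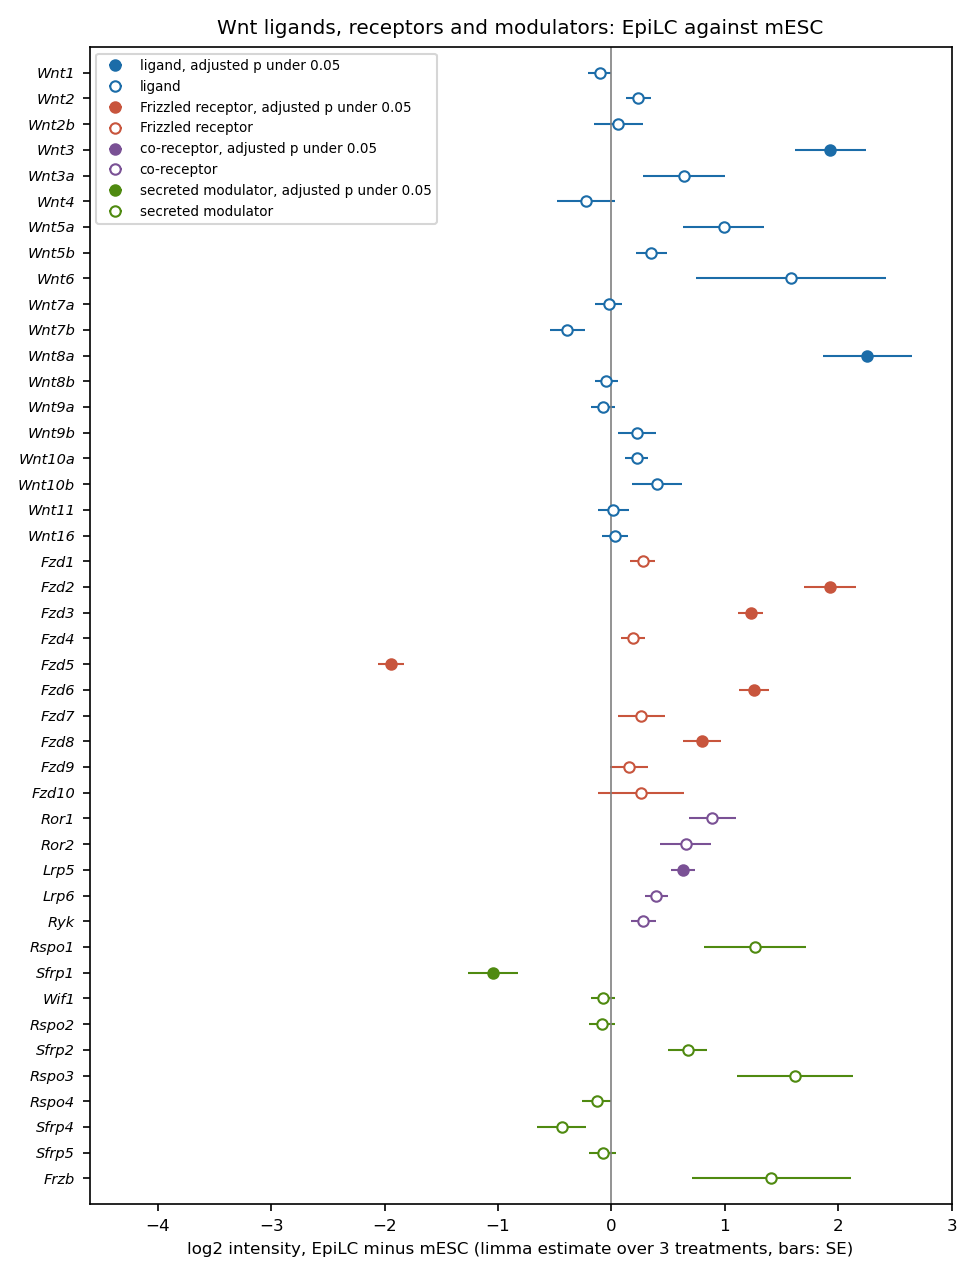
Estimated difference between EpiLC and mESC for each of the 44 genes, as EpiLC minus mESC on the log2 intensity scale from the additive limma fit over 3 treatments (bars, standard error; filled points, adjusted p under 0.05; colours, role). The 7 filled points on the right run from Lrp5 at 0.63 to Wnt8a at 2.25, and those on the left are Fzd5 at -1.94 and Sfrp1 at -1.04.

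The Frizzled receptors held 5 of the 9 genes that passed. Fzd2 measured 149, 95.4 and 154 in mESC and 359, 399.9 and 838 in EpiLC, and its estimate was 1.93 (SE 0.23, adjusted p = 0.00909). Fzd3, best known for axon guidance and planar cell polarity, measured 55.0, 66.9 and 54.3 in mESC and 116, 170.1 and 130.4 in EpiLC, an estimate of 1.23 (SE 0.11, adjusted p = 0.00474). Fzd6, which also acts in planar polarity, measured 85.1, 106 and 84.9 against 173, 248 and 246, an estimate of 1.26 (SE 0.13, adjusted p = 0.00656). For these receptors every EpiLC array was above every mESC array. Fzd8 measured 77.8, 72.2 and 74.6 in mESC and 129, 97.7 and 174 in EpiLC, with an estimate of 0.80 (SE 0.17, adjusted p = 0.0453). Fzd5 ran the other way, at 490.1, 399 and 409 in mESC and 147, 101 and 95.9 in EpiLC. All 3 EpiLC values of Fzd5 were far below the mESC values, and it had the smallest adjusted p of the 44 genes (-1.94, SE 0.12, adjusted p = 0.00195). Fzd1, Fzd4 and Fzd9 stayed within 2-fold on all 6 arrays, at intensities from 39.0 to 339.

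Among the co-receptors, Lrp5 measured 241, 235 and 242 in mESC and 411, 356 and 348 in EpiLC. Its mESC values were nearly equal and all EpiLC values were above them, giving an estimate of 0.63 (SE 0.11, adjusted p = 0.0248). Its paralogue Lrp6 ran from 167 to 185 in mESC and from 216 to 250.4 in EpiLC, with an estimate of 0.40 (SE 0.10) that missed the threshold (adjusted p = 0.078). It passed with the brightest probe (0.0338), with a lowest value of 64 in place of 16 (0.0406) and with median-centred arrays (0.0492). Ror1, a receptor tyrosine kinase relative that binds Wnt5a, measured 137, 82.5 and 69.3 in mESC and 168, 204 and 146 in EpiLC. Its groups did not overlap, but the adjusted p was 0.059 (0.89, SE 0.21). Ryk was between 717 and 1129 on all arrays.

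Of the secreted modulators, Sfrp1 measured 409.7, 331 and 657 in mESC and 257, 198 and 200.2 in EpiLC. Every EpiLC array was below every mESC array, and the estimate was -1.04 (SE 0.22, adjusted p = 0.0474). Sfrp2, of the same family, pointed the opposite way, at 135, 130.5 and 105 in mESC and 278, 152 and 177 in EpiLC, but with an adjusted p of 0.0759 (0.67, SE 0.17). Its 2 probes both had their highest value in untreated EpiLC, at 551 and 139.8. Rspo1 and Rspo3 had estimates of 1.27 (SE 0.45, adjusted p = 0.161) and 1.62 (SE 0.52, adjusted p = 0.128), with arrays that differed strongly by treatment, as described with the inhibitors.

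Wnt3, Fzd2, Fzd3, Fzd5 and Fzd6 kept their calls when any pair of arrays of 1 treatment was left out, while the other four did not. Without the untreated pair, Wnt8a (adjusted p = 0.0634), Fzd8 (0.12), Lrp5 (0.0788) and Sfrp1 (0.0761) missed the threshold, and Wnt5a (0.0274), Ror1 (0.0233), Ror2 (0.0479) and Rspo3 (0.0247) passed it. Without the CHIR pair, Lrp5 (0.112) and Sfrp1 (0.0581) missed it and Sfrp2 (0.0403) passed, and without the CHIR with PD pair Fzd8 (0.0843) missed it. With ordinary variances in place of limma's moderated ones, no gene passed.

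**Figure D2:**
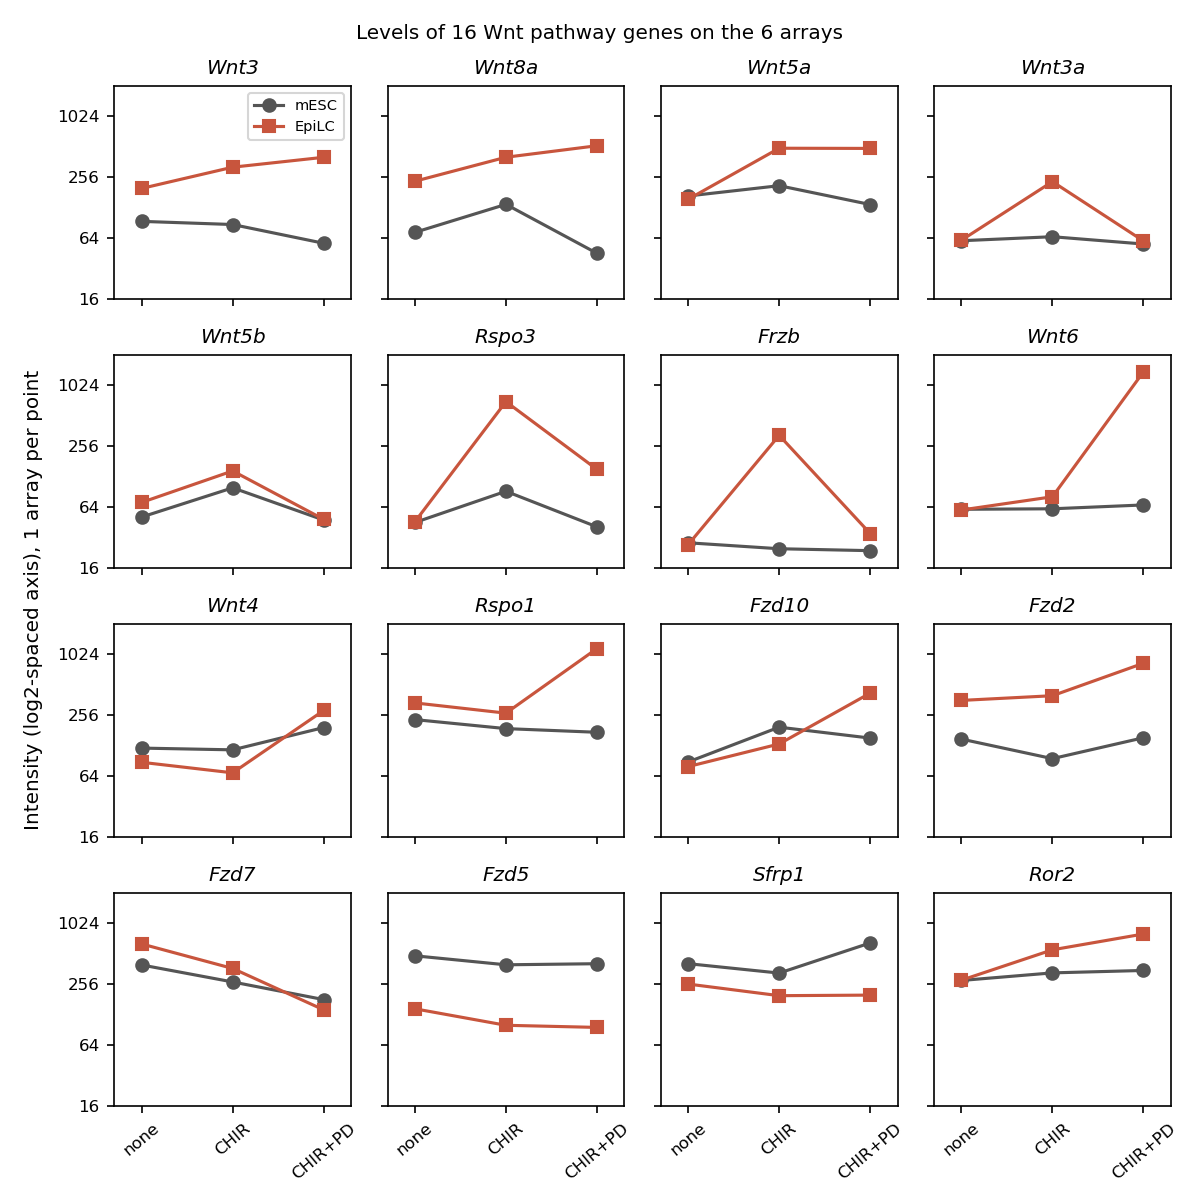
Normalised intensity (log scale) of 16 of the genes on each of the 6 arrays, with 1 point per array, lines joining the 3 arrays of a state, and colours for the 2 states. Wnt6 stands at 1396 in EpiLC with CHIR and PD and at no more than 81.1 elsewhere, whereas Frzb reaches 328 in EpiLC with CHIR and at most 35.1 elsewhere.

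The next comparison asked what CHIR did to these genes. In the additive fit over both states, limma called none of the 44 (smallest adjusted p 0.493, Wnt5b) and none of the 22180 genes. At an unadjusted p under 0.05 there were 6 of the 44, against 7.27% of all genes. A gene that responds in only 1 state counts as error in this fit, so the states are given separately, as single arrays with no test. In mESC, Fzd10 and Rspo3 were higher by 2-fold or more with CHIR (4.55% of the 44, against 0.185% of all genes) and none was lower (all genes 0.153%). In EpiLC, Wnt3a, Wnt5a, Wnt5b, Rspo3 and Frzb were higher (11.4%, against 1.77% of all genes) and none was lower (all genes 0.929%).

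The sizes in EpiLC were large for Rspo3, Frzb and Wnt3a. Rspo3, an R-spondin of the streak and its mesoderm, was at 45.9 in untreated EpiLC and 708 with CHIR, a log2 difference of 3.95, and at 45.1 and 91.9 in mESC, a difference of 1.03. Frzb, a decoy that binds Wnt ligands, was at 27.2 and 328 in EpiLC (3.59) but at 28.4 and 24.8 in mESC (-0.20). Wnt3a, a ligand that maintains paraxial mesoderm, was at 61.0 and 232 in EpiLC (1.93) and at 60.3 and 66.1 in mESC (0.13). For Frzb and Wnt3a the EpiLC array with CHIR was thus the single high array of the 6.

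Wnt5a and Wnt5b, the main ligands that act without beta-catenin, were both higher in EpiLC with CHIR. Wnt5a differed by 1.68 in EpiLC and 0.34 in mESC. Wnt5b was at 71.3 in untreated EpiLC and 146 with CHIR (1.03), and at 51.1 and 99.4 in mESC (0.96), so its size was alike in both states. Ror2, the receptor for Wnt5a, was at 281 and 562 in EpiLC and at 279 and 332 in mESC. In mESC the Frizzled receptor Fzd10 was at 88.4 untreated and 195 with CHIR (1.14), and in EpiLC at 79.6 and 133 (0.74). Wnt8a was higher with CHIR in both states, by 0.92 in mESC and 0.79 in EpiLC. Wnt3 differed by -0.10 in mESC and 0.70 in EpiLC. Fzd7, a principal Frizzled receptor of stem cells, was lower with CHIR in both, by -0.56 in mESC and -0.81 in EpiLC.

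Markers of primitive streak and mesoderm moved on the same array. The summed intensity of 8 such markers was 1088 in untreated EpiLC and 11630.5 with CHIR, with 6 of 8 higher by 2-fold or more, and it ran from 591 to 1009 in mESC. Mixl1 alone was at 179 in untreated EpiLC and 3378 with CHIR. The sum of 7 primitive endoderm markers was 655 and 1464 on these EpiLC arrays, with Gata6 and Lama1 higher by 2-fold or more. No marker was listed at 0, since the lowest value is 16. The part of other cell types in the higher Wnt3a, Rspo3 and Frzb was not tested, and in bulk RNA more cells of a type and more RNA per cell cannot be told apart.

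**Figure D3:**
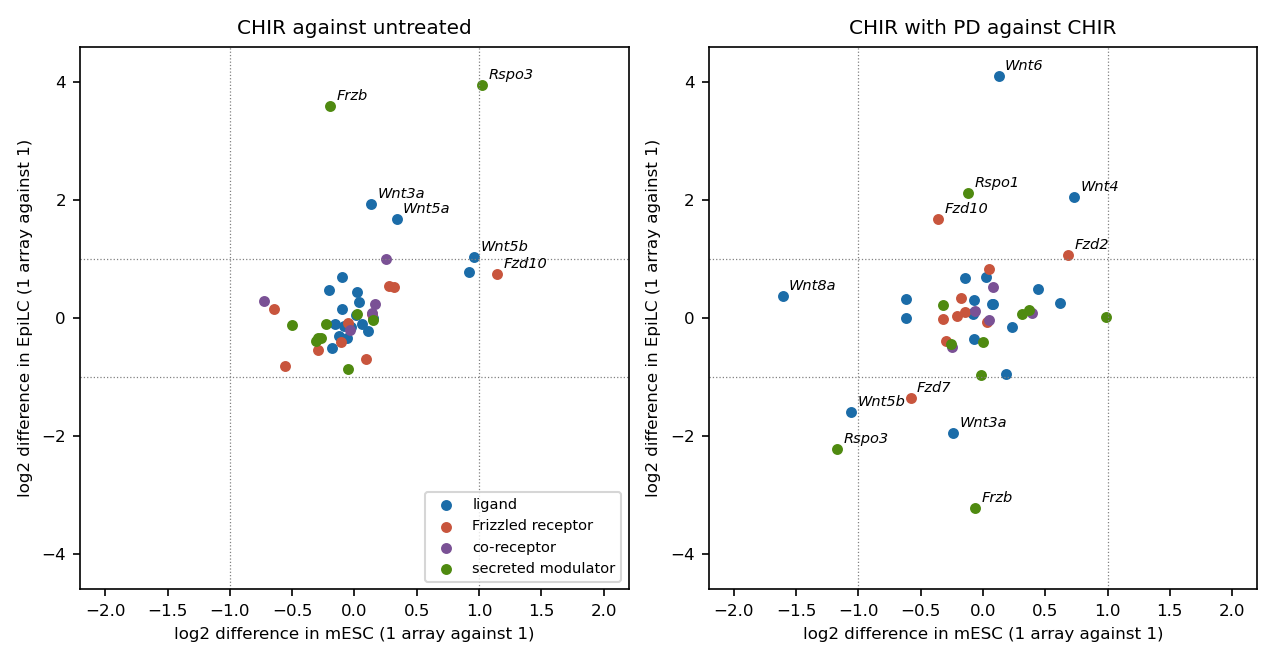
Log2 differences between single arrays for all 44 genes, in mESC (horizontal) and in EpiLC (vertical), for CHIR against untreated (left) and CHIR with PD against CHIR (right). Dotted lines mark 2-fold, and colours give the role. Rspo3 and Frzb reach 3.95 and 3.59 in EpiLC with CHIR and -2.23 and -3.23 when PD is added, and Wnt6 reaches 4.11 when PD is added in EpiLC.

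The arrays with CHIR and PD were then set against those with CHIR alone. PD was not given by itself, so a need for MEK was not tested. Over both states, limma called none of the 44 genes (smallest adjusted p 0.367, Wnt5b), and 4 of all genes fell (0.018%). At an unadjusted p under 0.05 there were 8 of the 44, against 5.77% of all genes. This comparison shares the CHIR arrays with the one before it, so a high CHIR value enters both with opposite signs. In mESC none of the 44 was higher by 2-fold or more (all genes 0.252%), and Wnt5b, Wnt8a and Rspo3 were lower (6.82%, against 0.523% of all genes). In EpiLC, Wnt4, Wnt6, Fzd2, Fzd10 and Rspo1 were higher (11.4%, against 1.04% of all genes), and Wnt3a, Wnt5b, Fzd7, Rspo3 and Frzb were lower (11.4%, against 1.01%).

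With PD added, the genes that were high with CHIR took different values. In EpiLC with both inhibitors Wnt3a was at 60.0, Frzb at 35.1 and Wnt5b at 48.5, against untreated values of 61.0, 27.2 and 71.3. Rspo3 was at 151, between the untreated 45.9 and the 708 with CHIR. Wnt5a stayed at 494 with both inhibitors, against 496 with CHIR alone, a difference of -0.01. With PD, then, Wnt3a, Frzb and Wnt5b lay near or below their untreated values, Rspo3 between both, and Wnt5a at its CHIR value. The streak and mesoderm sum was 748 on the EpiLC array with both inhibitors, with 7 of 8 markers lower than with CHIR by 2-fold or more.

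A second set was high in EpiLC with CHIR and PD together. Wnt6, a ligand found in many epithelia, was at 60.0, 81.1 and 1396 in EpiLC that were untreated, given CHIR, and given CHIR with PD. In mESC it was at 61.0, 61.7 and 67.3, so that a single array of 6 was high, with a log2 difference to CHIR of 4.11. Rspo1 was at 339, 269 and 1171 in EpiLC and at 232, 189 and 174 in mESC. Its difference on adding PD was 2.12 in EpiLC and -0.12 in mESC. Wnt4, a ligand of the kidney and gonad, was at 87.8, 69.1 and 286 in EpiLC and at 121, 117 and 194 in mESC, and was higher by 2.05 and 0.73. In both states the array with both inhibitors was the highest for Wnt4. Fzd10 was at 425 and Fzd2 at 838 on the EpiLC array with both inhibitors, higher than with CHIR by 1.67 and 1.07, and in mESC the differences were -0.36 and 0.69.

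Fzd7 was at 398, 270.1 and 181 in mESC and at 642, 367 and 143 in EpiLC. It was lower with CHIR and lower again with CHIR and PD in both states, at -0.58 and -1.36 on adding PD. Sfrp1 was at 331 with CHIR and 657 with both inhibitors in mESC, a difference of 0.99, whereas the EpiLC difference was 0.02. Wnt8a went from 138 to 45.3 in mESC on adding PD (-1.61) and from 404 to 525 in EpiLC (0.38). Wnt3 went from 87.3 to 56.9 in mESC (-0.62) and from 322 to 404 in EpiLC (0.33). Whether these differences between the states exceed the spread of replicates could not be tested, with 1 array per group.

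Sums of trophoblast, neural and fibroblast markers were also higher on the EpiLC array with both inhibitors. The sum of 8 trophoblast markers was 1067, 2061 and 3933 in EpiLC in the order untreated, CHIR and CHIR with PD, and 2349, 2593 and 4448 in mESC, with the highest sum on the arrays with both inhibitors in each state. Krt7 and Krt18 were the markers that were higher by 2-fold or more on adding PD in EpiLC. Tfap2c, of the same list, was under the lower quartile on all 3 EpiLC arrays. Hand1, Tfap2c and Gata3 were lower in EpiLC than in mESC in the limma fit of state. The sum of 6 neural markers was 779, 887 and 1852, with Sox1 the 1 marker higher by 2-fold or more on adding PD, and that of 9 fibroblast markers 1249, 825 and 1553. Of the fibroblast markers, Col1a1 and Acta2 were higher and Twist1 lower by 2-fold or more on adding PD, and Lum was under the lower quartile on all 6 arrays. Their part in the higher Wnt4, Wnt6, Fzd2, Fzd10 and Rspo1 was not tested.

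Set against untreated cells, CHIR with PD gave few differences in mESC and more in EpiLC. limma called none of the 44 genes over both states (smallest adjusted p 0.115, Fzd7), and 6 of all genes fell (0.0271%). At an unadjusted p under 0.05 there were 8 of the 44, against 14.3% of all genes. In mESC Fzd7 was lower by 2-fold or more (2.27%, against 0.848% of all genes) and none was higher (all genes 0.618%). In EpiLC 10 were higher (22.7%, against 2.62% of all genes): Wnt3, Wnt4, Wnt5a, Wnt6, Wnt8a, Fzd2, Fzd10, Ror2, Rspo1 and Rspo3. There Fzd7 and Sfrp4 were lower (4.55%, against 1.49%), at -2.17 and -1.31. Sfrp4 was dim, at 63.8 in untreated EpiLC and 25.8 with both inhibitors, and at most 67.3 on any array. Wnt6 differed by 4.54 in EpiLC and 0.14 in mESC, and Fzd10 by 2.42 and 0.78. Ror2 was at 805 on the EpiLC array with both inhibitors, a difference of 1.52, and at 351 in mESC, a difference of 0.33.

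The additive fits were also run with 1 mESC array left out. The treatment effect then rests on the EpiLC arrays, and the lone array is assumed to vary like the others. The fit matches that lone array exactly, so only sizes are given, for genes picked by their result in these same fits. These sizes largely repeat the single-array differences in EpiLC and are no separate test of them. Without the mESC CHIR array, the CHIR estimate was 1.91 for Wnt3a and 3.44 for Frzb. The estimate of PD on CHIR, which uses the same lone array, was -1.97 and -3.38. The mESC array with both inhibitors was left out next. The estimate of PD on CHIR was then 1.98 for Wnt4, -1.57 for Wnt5b, 4.21 for Wnt6 and 2.11 for Rspo1. Both inhibitors against untreated gave 1.78 for Wnt4, 4.44 for Wnt6, -2.10 for Fzd7, 2.52 for Fzd10 and 1.80 for Rspo1.

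**Figure D4:**
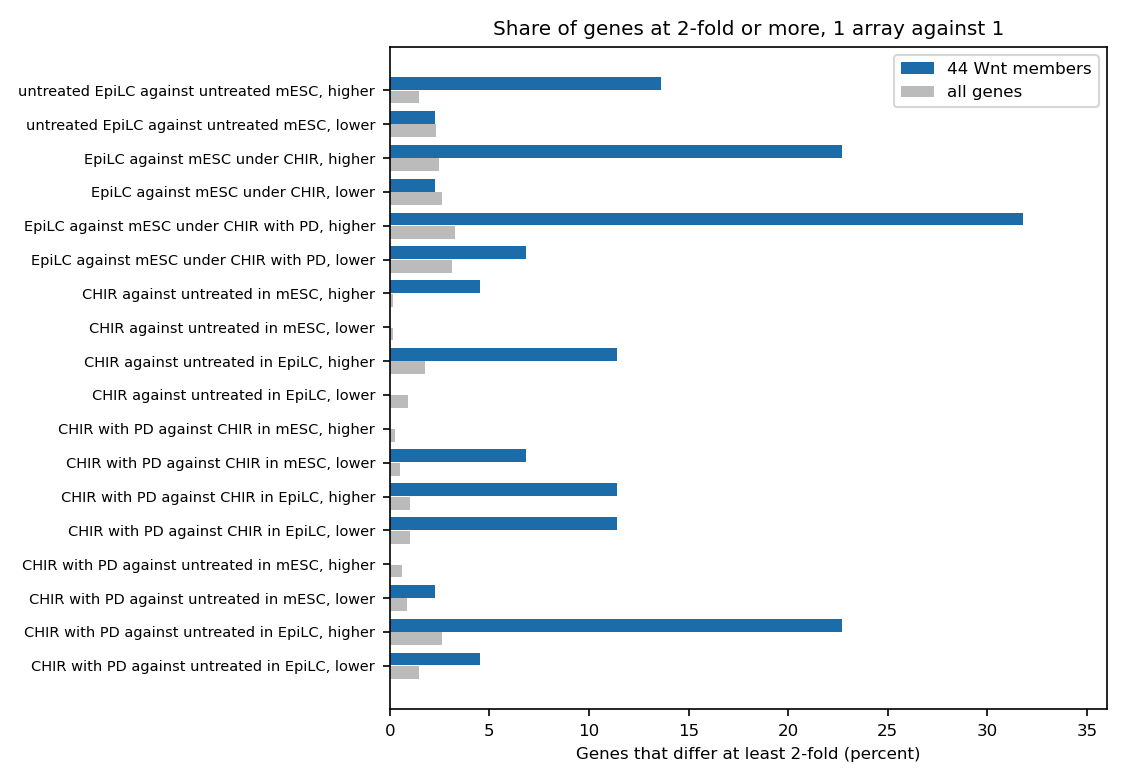
Percent of the 44 Wnt genes and percent of all genes that were higher or lower by 2-fold or more in each single-array comparison. For EpiLC with CHIR and PD against untreated EpiLC, 22.7% of the Wnt genes and 2.62% of all genes were higher.

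Upstream sequences are shown for 5 genes that stood high on 1 EpiLC array or were higher with CHIR in both states, so that the CHIR group (Wnt3a, Frzb, Wnt5b) can be set beside the CHIR with PD group (Wnt6, Rspo1). They are the 250 bases before the RefSeq start of transcription in GRCm38.p6, 5′ to 3′ in the direction of the gene: Wnt3a chr11:59290752-59291001 (minus strand), Frzb chr2:80447397-80447646 (minus), Wnt5b chr6:119449387-119449636 (minus, the innermost of 3 starts), Wnt6 chr1:74771642-74771891 (plus) and Rspo1 chr4:124986180-124986429 (plus). Capitals mark a TCF/LEF motif.
Wnt3a: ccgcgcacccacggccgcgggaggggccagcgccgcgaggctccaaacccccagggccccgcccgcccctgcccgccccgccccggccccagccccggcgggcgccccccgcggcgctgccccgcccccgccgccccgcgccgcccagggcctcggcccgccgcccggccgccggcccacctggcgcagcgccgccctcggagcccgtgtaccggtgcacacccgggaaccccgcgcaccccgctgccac
Frzb: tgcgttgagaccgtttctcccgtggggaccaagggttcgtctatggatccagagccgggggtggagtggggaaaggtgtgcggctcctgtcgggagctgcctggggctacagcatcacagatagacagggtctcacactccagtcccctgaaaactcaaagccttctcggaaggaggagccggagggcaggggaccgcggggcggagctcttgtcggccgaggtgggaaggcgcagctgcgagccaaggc
Wnt5b: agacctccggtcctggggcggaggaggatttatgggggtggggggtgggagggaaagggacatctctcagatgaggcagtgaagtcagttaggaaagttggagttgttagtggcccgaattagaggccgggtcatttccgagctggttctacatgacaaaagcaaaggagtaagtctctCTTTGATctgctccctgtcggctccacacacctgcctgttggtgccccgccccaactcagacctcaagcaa
Wnt6: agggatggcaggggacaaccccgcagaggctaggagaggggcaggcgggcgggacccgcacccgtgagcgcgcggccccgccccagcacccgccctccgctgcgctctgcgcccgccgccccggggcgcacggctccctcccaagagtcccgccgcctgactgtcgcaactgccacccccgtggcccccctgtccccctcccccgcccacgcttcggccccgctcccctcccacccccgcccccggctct
Rspo1: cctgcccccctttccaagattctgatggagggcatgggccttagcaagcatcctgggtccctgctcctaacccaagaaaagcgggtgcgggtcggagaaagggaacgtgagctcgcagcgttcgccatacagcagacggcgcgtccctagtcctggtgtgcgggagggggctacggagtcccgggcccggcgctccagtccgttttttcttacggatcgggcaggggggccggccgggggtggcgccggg
The motif searched was CTTTGAT or CTTTGAA on either strand. RefSeq promoters matched 30 of the 44 genes, with 33 starts, and 2 of these held the motif (Wnt5b and Wnt11), against 2457 of 32851 promoters (7.48%). In Wnt5b it lay from -71 to -65, counted from the innermost start, and the windows of the other Wnt5b starts did not hold it. An Ets motif, CCGGAAGT on either strand, was in none of the 33 and in 945 of all promoters (2.88%). The windows shown were 87.6% G or C for Wnt3a, 64.4% for Frzb and 55.6% for Wnt5b. They were 79.6% for Wnt6 and 66.8% for Rspo1, and the median over all promoters was 52.4%. No match says only that these letters are absent from these windows.

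The rest of the pathway was measured with 66 of 70 listed genes in 7 lists. Between the states 8 of the 66 rose and 1 fell at an adjusted p under 0.05 in limma, against 4.15% of all genes in each direction. Their median was 0.04, against -0.02 over all genes. Lef1, a transcription partner of beta-catenin, measured 435, 627 and 159 in mESC and 1233, 1448 and 700.4 in EpiLC, an estimate of 1.62 (SE 0.19, adjusted p = 0.00901). Its values were lowest with both inhibitors in each state. Gpc6, a glypican that carries heparan sulphate at the cell surface, measured 57.4, 62.9 and 71.1 against 109, 345 and 319.9 (1.85, SE 0.29, adjusted p = 0.0211). The others that rose were Nkd2, Bcl9, Vangl2, Prickle1, Gpc1 and Sulf1, with estimates from 0.49 to 1.37. Tle4, a co-repressor that binds TCF factors, fell by 1.13 (SE 0.20, adjusted p = 0.0267). No gene of Wnt secretion, of the co-receptor antagonists or of the R-spondin receptors passed.

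For treatment, none of the 66 passed in limma, and the EpiLC arrays again held most of the differences. With CHIR 9 were higher and 2 lower by 2-fold or more in EpiLC (all genes 1.77% and 0.929%), and 2 higher and none lower in mESC (all genes 0.185% and 0.153%). Wls, which carries Wnt proteins to the cell surface, was at 193, 446 and 1030.3 in EpiLC and 152, 255 and 309.5 in mESC. It was highest with both inhibitors in each state. Dkk1, a secreted antagonist of Lrp5 and Lrp6, was at 44.5, 559 and 101 in EpiLC and at 124, 355 and 620 in mESC. With both inhibitors Dkk1 was above its untreated value in each state, below its CHIR value in EpiLC and above it in mESC. Nkd1, an intracellular antagonist induced by the pathway, was at 75.03, 344 and 742 in EpiLC and at 46.1, 74.1 and 44.9 in mESC.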

How the data were processed

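RNA was measured on 6 Affymetrix Mouse Gene 2.0 ST arrays, 1 per group; the labels do not say how many cultures each represents. Per the labels' protocols RNA was labelled with a whole-transcript kit, and per the series text GeneSpring GX 11.5 was used. The authors deposited linear normalised intensities for 33793 probes. How they normalised is not given in the sources used here. Left out were 1814 probes with several symbols and 8458 with none. Intensities were taken to log2, averaged per symbol, and fitted with limma 3.58.1 in R 4.3.3 (state plus treatment, moderated variances, Benjamini-Hochberg over 22180 genes, threshold 0.05). Single-array differences carry no test. Genes were named if they passed a fit, or differed 2-fold in a single-array comparison with an intensity of at least 100 on 1 of its arrays. Up to 4 of the others per role, by highest mean level, could also be named, and Wnt9a and Wnt11 were named after their values were seen. The rule for the 44 genes reads symbols only, but these genes and the lists were proposed with earlier results of these data known. Code was tested on simulated data. Alternatives were an added constant, the brightest probe, 2 other scalings, a filter on dim genes, other variances and leaving out arrays. With no replicates, the error behind the p-values comes only from departure from additivity among these 6 arrays, whose number limits the precision. limma moderates this error over all genes, with 3.71 prior degrees of freedom beside the 2 residual ones.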

Additional observations from a re-analysis of the deposited data

Results flagged for a closer look

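For Wnt3 and Wnt8a, both higher in EpiLC than in mESC, CHIR with PD against untreated cells gave opposite signs in mESC and in EpiLC. The untreated and CHIR with PD intensities in mESC were low, at 93.8 and 56.9 for Wnt3 and at 73.0 and 45.3 for Wnt8a. Wnt3 differed by -0.72 on the log2 scale in mESC and by 1.02 in EpiLC. Wnt8a differed by -0.69 in mESC and by 1.17 in EpiLC. Each value is a difference of 1 array and 1 array, taken where both sizes were at least 0.5, and the difference between the states was not tested.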

How the results depend on the processing

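The 9 state calls became 4 when the lowest value was set to 4 in place of 16 before log2, without Wnt3, Wnt8a, Fzd8, Lrp5 and Sfrp1, and 0 with ordinary variances, an alternative chosen after seeing the data. Median-centred arrays gave 12, with Ror1, Lrp6 and Sfrp2 added, and the brightest probe 10. Leaving out arrays gave 8 to 9 calls for state (945 to 1276 of all genes), 0 to 2 for CHIR (0 to 52), 0 to 4 for PD on CHIR (3 to 71) and 0 to 5 for CHIR with PD (0 to 152). With a lowest value of 64, 2-fold counts went from 7 to 3 in untreated cells between the states, and in mESC from 2 to 0 with CHIR, from 3 to 0 with PD on CHIR and from 1 to 0 with CHIR and PD. With a lowest value of 4, the mESC counts were 4 with CHIR and 2 with CHIR and PD. A higher lowest value pulls low intensities together, so dim genes are limited most. Moderated variances with a trend lost Wnt8a (adjusted p = 0.0603) and gained Ror1. Scaling moved no median by over 0.1, and 77 of 77 values, the 2-fold single-array differences and the 9 state estimates, kept their sign under the 6 alternatives run on them. These values were chosen for their size, and another lowest value cannot reverse a single-array difference of a gene with 1 probe. The kept signs are therefore no test of the results. No paired analysis was possible because the labels give no replicate numbers and each group is 1 array. The arrays are matched by treatment alone, which is already a term of the model.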

Other observations

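Several ligand genes lie side by side in the genome by RefSeq order, in 4 pairs. In the pairs given here the gene with the smaller span over the EpiLC arrays is called the neighbour, so its smaller span is set by the naming. The neighbour did not have the smaller difference at each step. The remaining pair is not described. On adding PD to CHIR, Wnt9b differed by 0.70 and Wnt3 by 0.33 on the log2 scale in EpiLC. With both inhibitors against untreated EpiLC, Wnt9a differed by 0.39 and Wnt3a by -0.02. Wnt10a, next to Wnt6, was at 84.7, 87.6 and 103 in untreated, CHIR and CHIR with PD EpiLC, where Wnt6 was at 60.0, 81.1 and 1396. Wnt9a, next to Wnt3a, was at 55.4, 51.7 and 72.4 in the same arrays, where Wnt3a was at 61.0, 232 and 60.0. Wnt9b, next to Wnt3, was at 123, 114 and 184, where Wnt3 was at 199, 322 and 404. These are single arrays with no test, described after the values were seen.

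Cer1, a secreted antagonist of Nodal, BMP and Wnt, was at 58.4, 460.0 and 51.9 in EpiLC and between 46.5 and 49.8 in mESC, so that the EpiLC array with CHIR was the high one, as for Frzb and Wnt3a.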
